A study of Caenorhabditis elegans with 2 samples.

Results

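The genes examined here carry out fat breakdown in Caenorhabditis elegans, from the release of fatty acids to their shortening by beta-oxidation. They are all protein-coding genes of the Ensembl WBcel235 annotation whose name starts with acdh-, acox-, ech-, hacd-, cpt-, lipl- or atgl-, which gives 46 genes in 7 families out of 19973 protein-coding genes on the nuclear chromosomes. The data are ChIP-seq peak lists of the GATA factor ELT-2, a zinc finger protein that regulates genes of the worm intestine. Hermaphrodite worms of strain OP56, with the allele unc-119(ed3) III and the transgene wgIs56, make ELT-2 with a GFP-FLAG tag at its C-terminal end, and an anti-GFP antibody was used for the precipitation. Larvae were at the first stage (L1), 6 h after synchronization by starvation, in 1 group of 2 biological replicates. All comparisons are therefore between genes, families and replicates. The labels do not name the promoter of the transgene. Whole worms were used, so the lists do not tell in which cells a site was occupied.

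Fat is stored as triglyceride, in the worm mainly in the intestine. Lipases release fatty acids, either at the lipid droplet (atgl-1, adipose triglyceride lipase) or in the lysosome (the lipl- family). Carnitine palmitoyltransferases (cpt-) carry long chains into mitochondria. Each round of beta-oxidation then takes 4 steps: dehydrogenation by acyl-CoA dehydrogenases (acdh-) in mitochondria or acyl-CoA oxidases (acox-) in peroxisomes, hydration by enoyl-CoA hydratases (ech-), a second oxidation by hydroxyacyl-CoA dehydrogenases (hacd-) and cleavage by a thiolase. In worms the peroxisomal route also shortens the side chains of ascaroside pheromones.

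A gene is called bound when a thresholded ELT-2 peak has its summit in the gene's promoter, taken as the stretch that starts 1000 bp before an annotated transcript 5′ end and stops 200 bp after it. The thresholded list holds 5443 peaks on the build ce11, those that passed the authors' irreproducible discovery rate procedure (IDR, which compares peak ranks between replicates). Each peak carries the authors' signal, an enrichment statistic used here to rank peaks within a list, where rank 1 is the strongest. The 3 relaxed lists, which keep background on purpose, hold 16833 peaks for the pooled replicates, 17177 for replicate 1 and 18929 for replicate 2. The files give no read counts, so the depth of each replicate is unknown. Of 9 listed intestinal marker genes 7 were bound, 77.8% against 17.0% of all protein-coding genes, and ges-1 and vha-6 were not. Of 16 listed markers of body wall muscle, hypodermis, neurons and germ line only the neuronal gene unc-31 was bound.

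Of the 46 fat breakdown genes 19 were bound, 41.3%, against 17.0% of all protein-coding genes. By family, the bound genes were 3 of 6 for cpt-, 6 of 13 for acdh-, 3 of 7 for acox-, 4 of 10 for ech- and 2 of 8 for lipl-. The single hacd- gene was bound and the single atgl- gene was not. With only the 2721 strongest peaks of the list, 10 of the 46 genes were bound, 21.7% against 8.86% of all genes. None of these was an acdh- gene, although acdh-, the largest family, supplied more bound genes than any other in the whole list. Its share there was 46.2%, beside the 41.3% of all 46 genes. Its best peak ranked 2728, just beyond the cut at 2721. Both bound lipl- genes, the hacd- gene, 2 of 3 cpt- genes, 2 of 3 acox- genes and 3 of 4 ech- genes were among the 10. The families hold few genes, so these shares are descriptions of the families and carry no test.

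**Figure D1:**
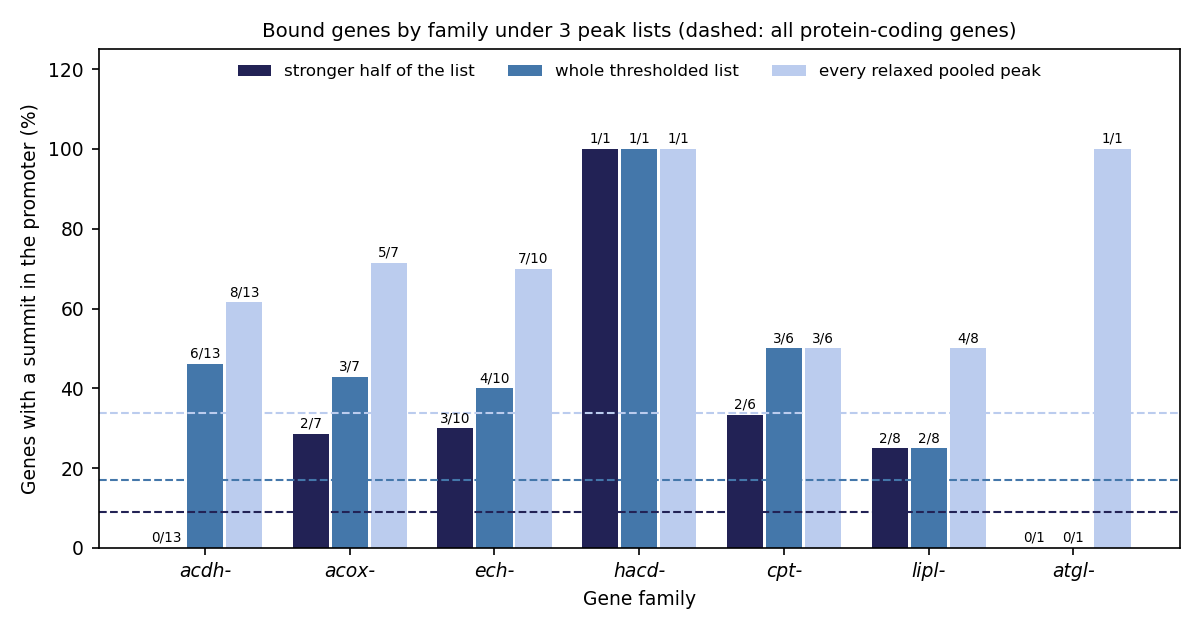
Share of each gene family with an ELT-2 summit in the promoter (vertical axis, percent of genes), counted with the 2721 strongest peaks, with the whole thresholded list and with every relaxed pooled peak. Labels give bound genes over all genes, and dashed lines give the share among all protein-coding genes for the list of the same colour (8.86%, 17.0% and 33.8%); acdh- goes from 0 of 13 to 6 of 13, whereas lipl- has 2 of 8 with either thresholded list.

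Genes with several annotated 5′ ends have more promoter sequence and were bound more often, among the 46 genes as among all. Of 30 members with 1 annotated 5′ end 11 were bound, 36.7% against 14.0% of the 14498 such genes. Of 16 members with more 5′ ends 8 were bound, against 25.2% of 5475. Many worm transcripts are trans-spliced, so an annotated 5′ end can lie downstream of the place where transcription starts. The 22 peaks of the 19 bound genes lay close to these ends, with 14 of 22 summits within 250 bp and a median of 171.5 bp upstream. Over all 3742 pairs of a gene and a promoter summit, 54.7% lay within 250 bp and the median was 221 bp upstream. A summit was shared with the promoter of another gene in 5 of the 22 cases, 22.7% against 34.8% over all pairs.

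**Figure D2:**
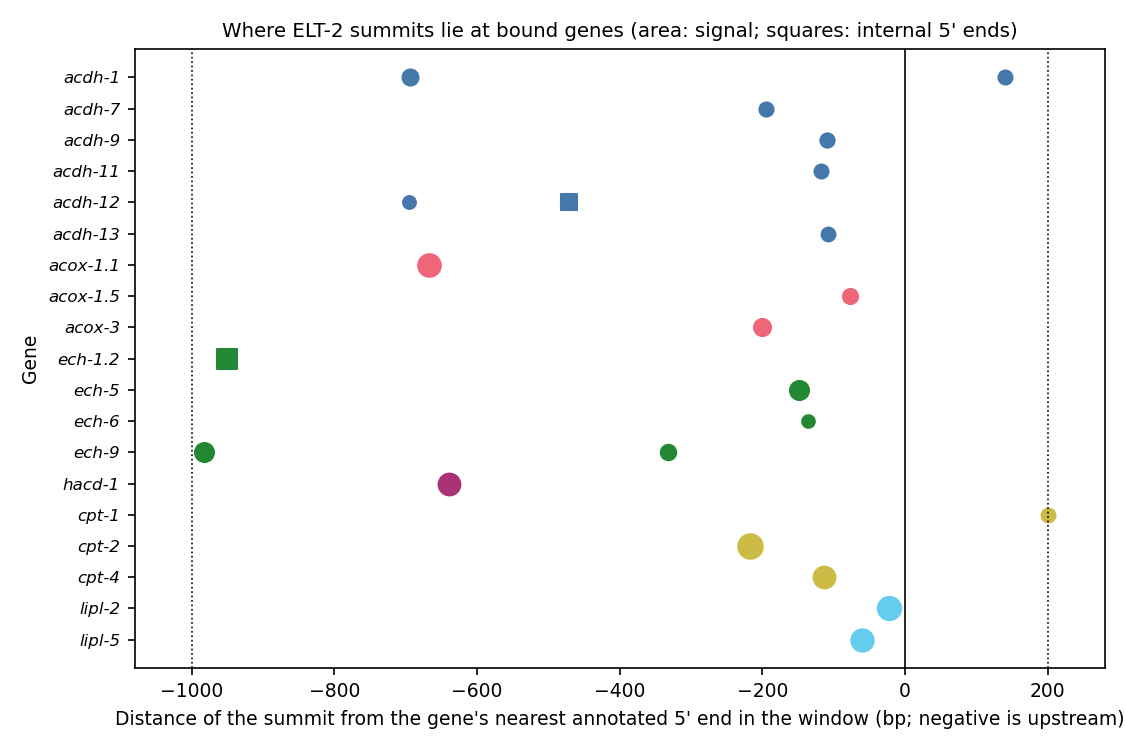
Distance of each promoter summit from an annotated 5′ end of the gene (horizontal axis, bp, negative upstream) for the 19 bound genes, with the area of a point showing the signal and squares marking summits counted through an internal 5′ end. Dotted lines are the limits of the promoter window; 20 of the 22 summits lie upstream of the end, and cpt-1 lies on the downstream limit.

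Sequences at 6 summits among the 2721 strongest peaks are shown, selected because they differ in whether the hexamer TGATAA, a sequence recognized by GATA factors, lies near the summit. The peaks of acox-1.1, ech-1.2 and ech-5, which also belong to the 2721 strongest, are not shown. Apart from lipl-2, each line gives the 101 bases from 50 bp before to 50 bp after the summit on the strand of the gene. The bases are from the RefSeq WBcel235 sequence, which is ce11, with this hexamer or its reverse complement TTATCA in capitals. The lipl-2 line also starts 50 bp before the summit but is cut short at 75 bases, 2 bases inside the annotated transcript. The windows are chrV:9791494-9791568 on the plus strand for lipl-2, chrV:385635-385735 plus for lipl-5, chrIV:10236262-10236362 minus for ech-9, chrIV:11179378-11179478 plus for cpt-2, chrV:5027786-5027886 minus for cpt-4 and chrV:1459680-1459780 plus for hacd-1.
lipl-2: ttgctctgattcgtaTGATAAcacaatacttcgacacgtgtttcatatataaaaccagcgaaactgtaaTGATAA
lipl-5: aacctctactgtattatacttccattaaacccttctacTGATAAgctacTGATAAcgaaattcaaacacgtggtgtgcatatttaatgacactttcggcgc
ech-9: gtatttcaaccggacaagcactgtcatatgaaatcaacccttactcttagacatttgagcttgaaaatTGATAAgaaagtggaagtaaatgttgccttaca
cpt-2: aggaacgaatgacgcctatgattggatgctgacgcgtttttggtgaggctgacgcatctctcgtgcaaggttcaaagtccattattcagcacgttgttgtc
cpt-4: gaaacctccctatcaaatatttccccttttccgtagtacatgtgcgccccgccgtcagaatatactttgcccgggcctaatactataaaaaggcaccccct
hacd-1: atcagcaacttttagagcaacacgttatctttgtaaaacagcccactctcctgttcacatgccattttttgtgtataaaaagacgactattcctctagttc

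Both lipase promoters with a peak held 2 copies in these windows, with starts 54 bp apart in lipl-2 and 11 bp apart in lipl-5, where 1 copy covers the summit. The ech-9 window held 1 copy, and the windows of cpt-2, cpt-4 and hacd-1 held no whole copy, although cpt-2 had the strongest promoter peak of all 46 genes. The hacd-1 line starts with the last 4 bases of a copy centred at -49.5 bp from the summit. With the looser motif of GATA preceded by A or T and followed by A or G, the cpt-4 and hacd-1 windows each held 1 match on either strand, and the cpt-2 window held none.

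Among the lysosomal acid lipases, lipl-2 and lipl-5 had strong peaks directly at their 5′ ends and the other 6 genes were not bound. The summit at lipl-2 (WBGene00009773) lay 23 bp upstream, in a peak on chromosome V from 9791444 to 9791646, with a signal of 497 and rank 836. In the replicates this peak had signals of 289.5 (rank 798) and 202 (rank 963). At lipl-5 (WBGene00022642), a gene known to be induced by fasting, the summit lay 61 bp upstream, in a peak on chromosome V from 385584 to 385747 with a signal of 458 and rank 994. Its replicate signals were 272 (rank 907) and 181 (rank 1175). Both peaks thus stood among the 2721 strongest of the list, and no other gene shared them.

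The fasting lipases lipl-1 and lipl-3, which are known targets of the transcription factor HLH-30, had weak peaks at the same place that missed the threshold. The pooled list placed a peak 52 bp upstream of lipl-1 (signal 135, rank 5783) and 31 bp upstream of lipl-3 (signal 129, rank 6020), which is 340 and 577 ranks beyond the last thresholded peak. The replicates ranked each of them differently. The lipl-1 peak ranked 7810 in replicate 1 and 4817 in replicate 2, whereas the lipl-3 peak ranked 5366 in replicate 1 and 7629 in replicate 2. With the 5443 strongest peaks of a single replicate, lipl-1 was bound in replicate 2 and lipl-3 in replicate 1. For lipl-4, known for lysosomal signals that extend lifespan, no list had a summit in the promoter, and the nearest thresholded summit lay 4564 bp upstream. The same held for lipl-6, lipl-7 and lipl-8, whose nearest thresholded summits lay 45243 bp downstream, 1654 bp upstream and 60051 bp downstream. The lipl-7 neighbour belongs to the promoter of tkt-1, a transketolase gene.

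The droplet lipase gene atgl-1 (WBGene00015484, chromosome III) came closest to the threshold of all unbound members. A peak of the pooled list lay 68 bp downstream of its 5′ end with a signal of 141, at rank 5484 and so 41 ranks beyond the last thresholded peak. It ranked 5733 in replicate 1 and 5668 in replicate 2, outside the 5443 strongest peaks of each. Farther upstream, 1761 and 2852 bp from the 5′ end, lay 2 thresholded summits that ranked 260 (signal 779) and 1471 (signal 366), both inside the neighbouring gene C05D11.8. The stronger held rank 276 in replicate 1 and rank 226 in replicate 2. With a wider window, reaching 3000 bp before and 500 bp after the 5′ end, atgl-1 was therefore bound, and which gene those summits serve was not tested.

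Of the carnitine palmitoyltransferase genes cpt-1, cpt-2 and cpt-4 were bound. At cpt-2 (WBGene00011122), which codes for the enzyme of the inner mitochondrial membrane, the summit lay 217 bp upstream in a peak on chromosome IV from 11179344 to 11179528. Its signal was 551, rank 656, with 287 (rank 812) in replicate 1 and 265 (rank 509) in replicate 2. The same summit lay 833 bp upstream of C08F8.9, a gene on the opposite strand. At cpt-4 (WBGene00019644) a summit 113 bp upstream, on chromosome V in a peak from 5027808 to 5027923, had a signal of 436 and rank 1091, with ranks 1054 and 1109 in the replicates. The cpt-4 peak thus had nearly the same rank in both replicates, whereas cpt-2 ranked higher in replicate 2.

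The gene for the rate-limiting outer membrane enzyme, cpt-1 (WBGene00012907, chromosome II), had a weaker peak whose summit lay in an intron exactly 200 bp downstream of the 5′ end, the last position the promoter window includes. Its signal was 176 and its rank 4310, with overlapping peaks at ranks 4321 and 4538 in the replicates. In replicate 1 the summit of that peak fell beyond the window, so without replicate 2 cpt-1 was not bound, and it was not bound with a window from 500 bp before to 100 bp after the end either. Of the unbound cpt- genes, 2 had a thresholded summit in an intron of their own. In cpt-5 it lay 605 bp downstream of the 5′ end (rank 5105) and in cpt-6 1185 bp downstream (signal 324, rank 1800), and each had 2 copies of TGATAA within 50 bp. The nearest summit to cpt-3 lay 6838 bp downstream.

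The acyl-CoA dehydrogenases carry out the first step of mitochondrial beta-oxidation, and some act in the breakdown of branched-chain amino acids. In this family 6 of 13 genes were bound, all by peaks of the weaker part of the list. The 8 peaks had signals from 151 to 250.1, with a median of 181 against 337 for the 14 peaks of the other families and 252 for all 3076 promoter peaks. None of the 8 stood among the 2721 strongest peaks, where 10 of the 14 others and 50.3% of all promoter peaks did. The best, in an intron of acdh-12, ranked 2728. For all 8 peaks the rank was higher in replicate 2 than in replicate 1. Among the 3073 promoter peaks with a peak in both replicates, 1618 ranked higher in replicate 1.

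Across the acdh- genes the order by strongest peak was acdh-12, acdh-1, acdh-9, acdh-7, acdh-11 and acdh-13, and the last 4 had signals from 175 to 185. At acdh-12 (WBGene00017125, chromosome II), an intron summit with a signal of 250.1 lay 471 bp upstream of an internal 5′ end and ranked 3797 and 1993 in the replicates. A second summit, 696 bp upstream of the outermost end and 61 bp downstream of the 5′ end of maoc-1 on the opposite strand, ranked 5100. For acdh-1 (WBGene00016943), whose product takes part in the propionate shunt and whose promoter is widely used as a reporter of diet, 2 summits were found on chromosome I. The upstream summit, at 6496742 and 694 bp from the 5′ end, had a signal of 235 (rank 2983, with 3003 and 2580 in the replicates). The other lay in an exon 140 bp downstream, with a signal of 179 (rank 4219, with 4969 and 3076 in the replicates).

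The remaining bound acdh- genes each had a single summit just upstream. It lay 109 bp from acdh-9 with a signal of 185 (replicate ranks 5112 and 3637), 195 bp from acdh-7 with 183 (5372 and 2884), 118 bp from acdh-11 with 179 (4632 and 4167) and 108 bp from acdh-13 with 175 (4526 and 4301). The product of acdh-11 is known to limit expression of a fatty acid desaturase gene as temperature rises. The acdh-9 summit was 100 bp from the 5′ end of F28A10.13 on the opposite strand, and when each summit was given only to the nearest 5′ end acdh-9 was no longer bound. The acdh-13 summit was shared with mesp-1, 379 bp away.

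Of the 7 unbound acdh- genes only acdh-2 and acdh-3 had any pooled promoter peak, 18 bp upstream with rank 7695 and 202 bp upstream with rank 15310. For acdh-4, acdh-5, acdh-6, acdh-8 and acdh-10 no list held a promoter summit. On chromosome X, acdh-10 and acdh-7 lie in tandem, from 17213144 to 17214903 and from 17215018 to 17217105. A thresholded summit of rank 3334 lay 1510 bp upstream of acdh-10 inside acdh-7, and the acdh-7 promoter summit lay 2397 bp upstream of acdh-10.

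Peroxisomal acyl-CoA oxidase genes were bound in 3 of 7 cases. The strongest peak was at acox-1.1 (WBGene00008564), an enzyme of ascaroside shortening, with a summit 668 bp upstream and a signal of 469 (rank 947). It held rank 687 in replicate 1, with a signal of 306, and rank 1419 in replicate 2, with a signal of 164. This was the largest relative difference in rank between replicates among the bound members. The summit had 2 copies of TGATAA within 50 bp. Promoter summits at acox-3, 201 bp upstream with a signal of 267 (replicate ranks 2142 and 2881), and acox-1.5, 77 bp upstream with a signal of 208 (replicate ranks 4232 and 3145), were weaker.

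The genes acox-1.1 to acox-1.4 follow each other on the same strand of chromosome I between 12938555 and 12954003. Of these only acox-1.1 was bound. A second strong summit lay in this array, in an intron of acox-1.3 and 1183 bp upstream of acox-1.4, just outside the promoter window. Its signal was 590.2, rank 556, with ranks 560 and 564 in the replicates, and it had 2 copies of TGATAA within 50 bp. It was thus stronger than the acox-1.1 peak and than every promoter peak of the 46 genes. In the pooled list acox-1.2 and acox-1.4 had promoter peaks at ranks 14255 and 16819, near the end of the list, and acox-1.3 had none. For acox-1.6 on chromosome X the nearest thresholded summit, rank 289, lay 2730 bp upstream in the promoter of serp-1.1.

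Enoyl-CoA hydratases add water to the double bond made in the first step, and 4 of their 10 genes were bound, by 5 peaks with signals from 145.5 to 341. At ech-1.2 (WBGene00020347, chromosome I), related to the large subunit of the mammalian mitochondrial trifunctional protein, an intron summit had a signal of 341 (rank 1658, with 1774 and 1682 in the replicates). It lay 258 bp downstream of the outermost 5′ end and was counted because it lay 951 bp upstream of an internal one. With outermost ends only, ech-1.2 was not bound. Its paralogue ech-1.1 was not bound and had its nearest thresholded summit 5848 bp downstream. At ech-5 the summit lay 148 bp upstream (signal 333, rank 1727, with 1613 and 1928 in the replicates) and 304 bp from F56B3.11 on the opposite strand.

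The genes ech-9, ech-8 and lipl-7 follow each other on the minus strand of chromosome IV between 10233310 and 10241823. Of these only ech-9 (WBGene00001158) was bound, with summits 983 and 332 bp upstream. They had signals of 330.4 (rank 1746, with 2031 and 1321 in the replicates) and 217 (rank 3314, with 3077 and 3352 in the replicates), and each had TGATAA within 50 bp. At ech-8 the pooled list held a peak 20 bp upstream at rank 5980, which was in the 5443 strongest of replicate 1 (rank 5271) and not of replicate 2 (rank 7265).

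The weakest bound member was ech-6 (WBGene00001155, chromosome III), an enzyme of mitochondrial acyl-CoA and propionate breakdown, with a summit 136 bp upstream and a signal of 145.5. Its rank of 5305 lay near the end of the list, and the replicates placed it at 5873 and 4815, so it was not bound without replicate 2. On the other side of the threshold ech-3 had a pooled peak 60 bp downstream at rank 6337, with ranks 7314 and 5167, and was bound without replicate 1. A pooled peak at ech-4 ranked 12922. The genes ech-2 and ech-7 had none, and their nearest thresholded summits lay 34187 and 52367 bp away.

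The hydroxyacyl-CoA dehydrogenase gene hacd-1 (WBGene00019978) had a summit 639 bp upstream on chromosome V, in a peak from 1459525 to 1459934. The signal was 436 and the rank 1092, with 264 (rank 958) in replicate 1 and 173 (rank 1277) in replicate 2. With the window of 500 bp upstream it was not bound.

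The replicates placed the bound members' peaks in similar order. All 22 peaks overlapped a peak in each replicate, and 20 of them, 90.9%, were among the 5443 strongest of both, against 85.7% of all promoter peaks. The exceptions were the ech-6 peak and the acdh-12 peak of rank 5100, both below the limit in replicate 1. Across the 22 peaks the Spearman rho of the replicate ranks was 0.88, and it was 0.84 across all promoter peaks. Across the 8 acdh- peaks alone, which span only ranks 2728 to 5100 of the list, it was 0.52. These are descriptions, since the peaks come from the same 2 libraries and had to pass a threshold to which both contribute. With the 5443 strongest peaks of replicate 1 alone, 19 of the 46 genes were bound, 41.3% against 17.0% of all genes. With those of replicate 2 alone 21 were bound, 45.7% against 16.5%. Replicate 2 alone kept every one of the 19 and added ech-3 and lipl-1, whereas replicate 1 alone lost ech-6 and cpt-1 and added ech-8 and lipl-3.

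**Figure D3:**
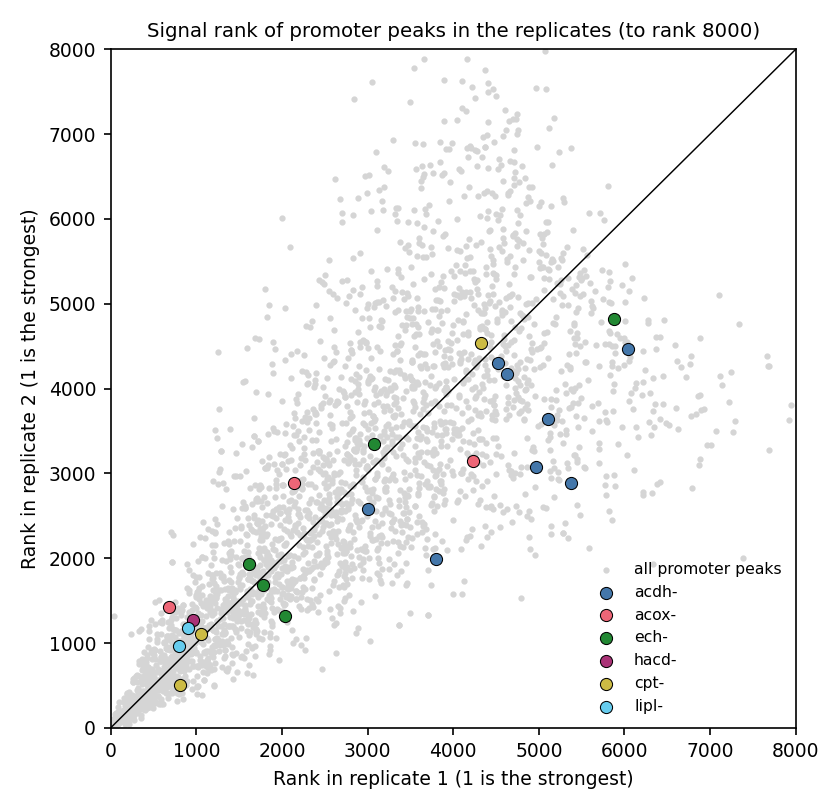
Signal rank in replicate 1 (horizontal axis) and replicate 2 (vertical axis) for promoter peaks, with all promoter peaks in grey and those of the bound fat breakdown genes coloured by family. The line marks equal rank; all 8 acdh- peaks lie below it, where replicate 2 ranks them higher.

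The 27 unbound members fell into those with a weak peak and those with none. In the pooled relaxed list 10 of them had a promoter summit, so that 29 of 46 genes, 63.0%, had a pooled peak against 33.8% of all genes. Of the 10, 5 lay within 1000 ranks of the threshold, namely atgl-1, lipl-1, ech-8, lipl-3 and ech-3. Of these 4 were among the 5443 strongest peaks of 1 replicate and none was so in both. For 13 unbound members no ce11 list held a promoter summit. The nearest thresholded summit lay beyond 5000 bp for 13 of the 27 and within 3000 bp for 10.

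**Figure D4:**
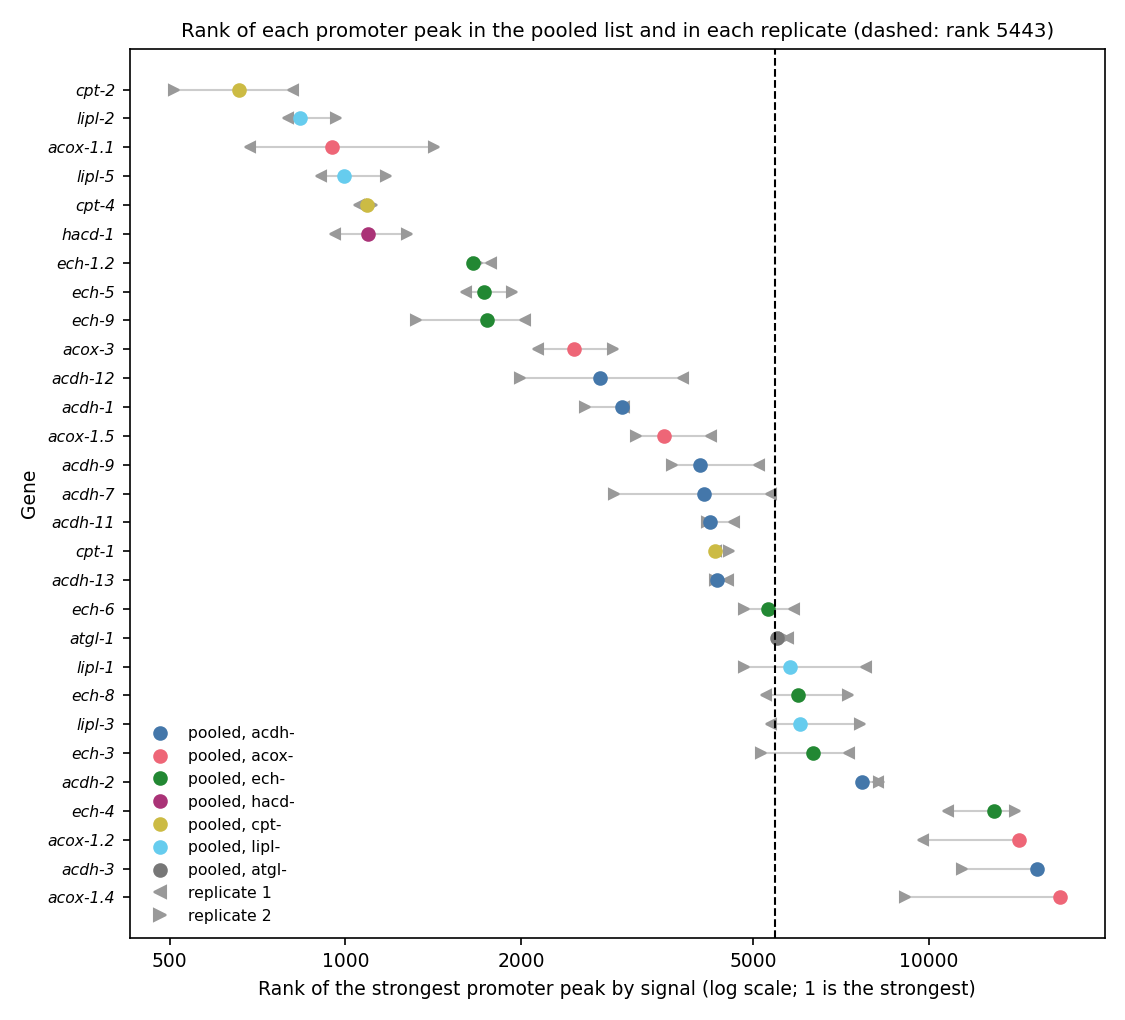
Rank of the strongest promoter peak (horizontal axis, log scale) for the 29 genes with a promoter summit in the pooled list, strongest on top. Circles give the pooled list coloured by family and triangles the replicates; the dashed line at rank 5443 is the end of the thresholded list, with ech-6 just inside and atgl-1 just outside.

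The share of these peaks with TGATAA was near that of all promoter peaks. Of the 22 windows reaching 50 bp to each side of the summit, 9 held a copy on either strand, 40.9% (95% Wilson interval 23.3 to 61.3, counting error only), against 42.4% of 3076 promoter peaks. Within 150 bp the hexamer was present in 15 of 22, 68.2% against 62.6%. By family, a whole copy lay within 50 bp of the summit in both lipl- peaks, 3 of 5 ech- peaks and 3 of 8 acdh- peaks. The same held for 1 of 3 acox- peaks, for none of 3 cpt- peaks and not for the hacd-1 peak. At hacd-1 a copy centred at -49.5 bp from the summit crosses the edge of the window and was not counted. Of the 10 stronger member peaks 5 had a whole copy within 50 bp, 50%, and of the 12 weaker 4, 33.3%. Among all promoter peaks, split in the same way, 47.3% of the 1547 stronger and 37.4% of the 1529 weaker had a copy. The difference between stronger and weaker peaks was thus not particular to the members. A hexamer in the promoter was common in bound and unbound genes, and more frequent in the bound ones. The promoter of the outermost 5′ end held TGATAA in 18 of 19 bound members (94.7%) and in 22 of 27 unbound members (81.5%). Among all protein-coding genes it was present in 81.5% of the bound, 70.0% of the unbound and 72.0% together. Single genes departed from this: the bound acdh-9 had no copy there, whereas the unbound lipl-6 and lipl-8 had 4 each.

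**Figure D5:**
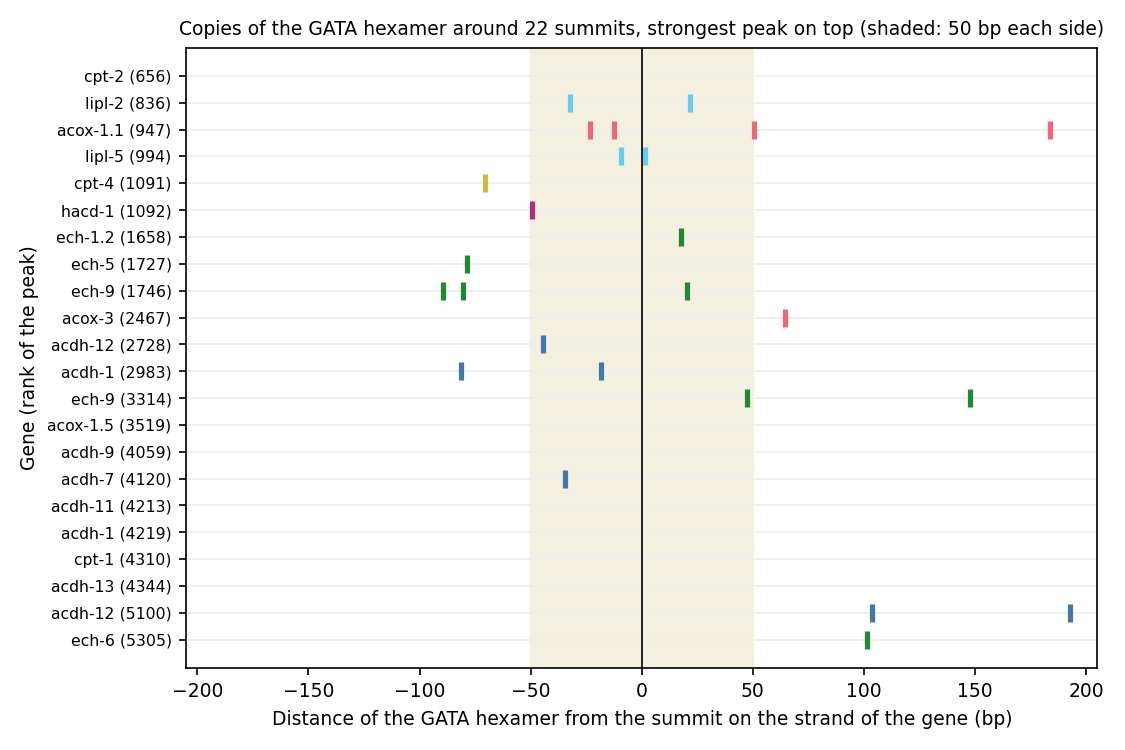
Position of each copy of the GATA hexamer relative to the summit (horizontal axis, bp, on the strand of the gene) for the 22 promoter peaks of bound genes, ordered by rank with the strongest on top and coloured by family. The shaded band is 50 bp on each side; 9 of the 22 peaks have a whole copy inside it, among them both lipl- peaks, and the top peak at cpt-2 has no copy in the plotted range.

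Most of the other listed genes of fat breakdown were bound. A list of 36 further enzymes, transporters and regulators had 26 bound, 72.2% against 17.0% of all genes. With the 2721 strongest peaks 16 of the 36 were bound, 44.4% against 8.86% of all genes. The list was drawn up with earlier results of these data known, so its shares are no independent evidence. The later steps of peroxisomal beta-oxidation were all bound: maoc-1 (hydratase, rank 5100), dhs-28 (dehydrogenase, summit 151 bp upstream, rank 2002) and daf-22 (thiolase, 304 bp upstream, rank 850). Together with acox-1.1 this covers each of the 4 steps, although maoc-1 rests on the weak summit it shares with acdh-12. In mitochondria the thiolase gene kat-1 was bound by 2 peaks, and acaa-2 was not bound. The stronger kat-1 peak, at rank 3535, had its summit 989 bp upstream and is shared with kars-1. Also bound were let-721 (rank 1984), which passes electrons from acyl-CoA dehydrogenases to the respiratory chain, the mitochondrial carrier gene dif-1 (rank 1893), the propionate shunt genes hach-1 (rank 1926) and hphd-1 (rank 2629), and acsd-1 (rank 3141).

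At the lipid droplet the perilipin gene plin-1 (rank 2742) and the hormone-sensitive lipase gene hosl-1 (rank 2823) were bound, whereas lid-1, a partner of ATGL-1, was not. The fasting-induced lipase genes fil-1 and fil-2 were bound at ranks 1722 and 4274. The peroxisomal transporter genes pmp-5, pmp-1, pmp-4 and pmp-2 were bound at ranks 926, 1673, 1933 and 4514, and the import receptor gene prx-5 at rank 4541. Among regulators of fat breakdown, the nuclear receptor genes nhr-80, nhr-66, nhr-49 and nhr-13 were bound at ranks 570, 1272, 2244 and 2703. The lipase regulators hlh-30 and mxl-3 were bound at ranks 1179 and 3232, the AMP-activated kinase gene aak-2 at rank 2022 and the deacetylase gene sir-2.1 at rank 3068. Not bound were the regulators mdt-15, a Mediator subunit gene, and kin-1, the catalytic subunit gene of protein kinase A. Besides these, acaa-2 and lid-1, the unbound genes of the list were prx-10, decr-1.1, decr-1.2, decr-1.3, ivd-1 and fard-1. The families of fatty acid synthesis, activation and binding (acs-, elo-, fat- and lbp-) were bound in 21 of 47 cases, 44.7%, beside the 41.3% of the breakdown families.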

How the data were processed

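The authors' deposited ce11 peak lists were used: 1 thresholded, 1 pooled and 1 for each replicate. Per the files' accompanying notes, a replicate's list derives from its own alignment and a control. The pooled list combines both replicates, and IDR on these lists gave the thresholded one. Which aligner, peak caller and IDR threshold were used is not given in the sources used here. No untagged strain was analysed. The signal of a peak is the authors' deposited enrichment statistic, and its scale differs between lists, so ranks were compared. The deposited −log10 q-value reaches a ceiling and was not used. Lists on ce10 were not used, because the annotation is on ce11.

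Summits (1-based) were set against transcript 5′ ends of the Ensembl release 115 annotation. Replicate values come from the strongest peak overlapping the thresholded peak by at least 1 base. Motifs were sought on both strands of the RefSeq WBcel235 sequence. No test between groups was possible with 1 group of 2 replicates, and none was made. Labels call the replicates biological and say no more of the cultures. The members and lists were chosen with earlier results of these data known. By rule every member is named. Full values go to bound members among the 2721 strongest peaks, up to 2 weaker ones per family, the unbound member with the best pooled peak in each family, and acdh-1, atgl-1, lipl-4, acox-1.1 and cpt-1. Bound pathway genes are named. Values of further members were added after they were seen. Alternatives were other windows (500 and 100 bp, 3000 and 500 bp), the nearest 5′ end within 1000 bp, the 2721 strongest peaks, all pooled peaks, each replicate left out (the 5443 strongest peaks of the other) and other motif windows and letters. Counting outermost 5′ ends only was chosen after seeing the data. Summits planted in simulated data served to check the programs. Python 3.11.15, NumPy 2.4.6, SciPy 1.17.1 and matplotlib 3.10.9 were used.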

Additional observations from a re-analysis of the deposited data

How the results depend on the processing

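The count of 19 bound members stayed within 1.5 times under 6 of 8 settings, from 14 with the narrow window to 26 with the wide one, and the members' share stayed between 1.87 and 2.77 times that of all genes in all 8. It moved to 10 with the 2721 strongest peaks and to 29 with every pooled peak. With the 2721 strongest peaks acdh- fell to 0 of 13 and the further pathway genes to 16 of 36, where 8.86% of all genes were bound. With every pooled peak acox- had 5, ech- 7, lipl- 4 and atgl- 1 bound. With the wide window acox- had 5, lipl- 4 and atgl- 1, and with the narrow window hacd- had 0. Leaving out a replicate gave 19 to 21 bound members, 2 to 3 for cpt-, 3 for lipl- and 4 to 5 for ech-. The share of peaks with the hexamer moved from 40.9% to 63.6% when GATA preceded by A or T and followed by A or G was sought, against 54.6% of all promoter peaks. By construction the lists and windows differ in how many peaks and how much sequence they include. No paired analysis was possible because there is 1 group. The unknown depth limits what a missing peak means: it was not detected in these lists.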

Other observations

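A hexamer other than TGATAA recurs at the member peaks that lack it. TGCGTC, or GACGCA on the other strand, was noticed on reading the sequences, so it is a description with no test. Of the 13 member peaks without TGATAA within 50 bp of the summit, 5 held it there, 38.5%, and none of the 9 with TGATAA did. Over all promoter peaks it lay in 14.6% of the 1772 without TGATAA and in 4.52% of the 1304 with it. The 5 peaks are those of acdh-9, which holds 2 copies, acdh-11, acox-3, ech-6 and cpt-2. Peaks with this hexamer thus include both the strongest and the weakest bound member. Whether ELT-2 meets DNA there directly was not tested. The windows of 4 of them are chrII:848662-848762, chrIII:10566090-10566190, chrIV:6248643-6248743 and chrIII:9752969-9753069, on the strand of the gene with the hexamer in capitals.
acdh-9: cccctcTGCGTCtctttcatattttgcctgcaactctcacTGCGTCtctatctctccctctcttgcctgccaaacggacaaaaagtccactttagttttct
acdh-11: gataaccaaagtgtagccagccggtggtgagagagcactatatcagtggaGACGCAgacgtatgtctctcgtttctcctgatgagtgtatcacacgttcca
acox-3: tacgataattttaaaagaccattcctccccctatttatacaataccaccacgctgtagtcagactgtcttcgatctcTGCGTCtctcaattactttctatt
ech-6: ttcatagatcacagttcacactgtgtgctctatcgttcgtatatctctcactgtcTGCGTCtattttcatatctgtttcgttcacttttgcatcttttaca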
